A study of Caenorhabditis elegans with 2 samples.

Results

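Genome binding of the basic helix-loop-helix factor HLH-4 was measured by ChIP-seq in Caenorhabditis elegans, and the genes described here are 7 of the 19973 annotated protein-coding genes: ced-5, wrm-1, mib-1, cux-7, thoc-5, cyn-10 and dhhc-4. They were chosen by name because a peak near their start lacked a G/C-centred E-box and carried another sequence shared between them. The choice therefore rested on the peak lists of these libraries. Ranks, signal values, the missing E-box and the shared sequence are given as a description, with no test. For each gene, all regions whose summit lay between 2000 bp before and 500 bp after the gene start (in reach of the gene) were read from the pooled list and both replicate lists.

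The animals were hermaphrodite L1 larvae of strain OP523, genotype unc-119(tm4063) III; wgIs523, with an integrated transgene for HLH-4 tagged at its C-terminus with GFP-FLAG. They had been synchronized as L1 larvae by starvation after bleaching, and the time past synchronization was 6 hours. Sonicated chromatin of whole animals was precipitated with an anti-GFP antibody in 2 biological replicates, the only group in the series. The signal comes from all tissues together, so binding in fewer cells and weaker binding per cell cannot be told apart. The sources used here give neither the regulatory sequence carried by the transgene nor the read depth nor the scale of the signal values. Each replicate list and the pooled list held 30000 regions, and the authors' optimal set, selected by irreproducible discovery rate (IDR), held 545 peaks. A control library was not analysed here.

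Basic helix-loop-helix factors bind DNA as dimers at E-boxes, sites of the form CANNTG, and those of the Achaete-Scute family, to which HLH-4 belongs, favour G/C-centred ones (CAGCTG, or CACCTG, which reads CAGGTG on the other strand). HLH-4 is known from the ADL chemosensory neurons. A ChIP peak marks DNA recovered with the factor; it may be held directly or through other proteins, and a peak alone does not say whether the nearby gene responds. The genes have different known roles: CED-5 is a Rac activator of cell corpse engulfment, WRM-1 a β-catenin, MIB-1 a ubiquitin ligase, THOC-5 a subunit of the THO mRNA export complex, CYN-10 a cyclophilin and DHHC-4 a member of the DHHC palmitoyl transferase family.

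The sites are shown first because the shared sequence is what brings these genes together. Each line is 30 bases of the reference genome, build ce11, read 5′ to 3′ along the gene. Capitals mark the 8 bases that recur, here called the core, ACTCCTCT (AGAGGAGT on the other strand).
ced-5: cacggtttgtggACTCCTCTcggataaaca
wrm-1: caccggctgtgtACTCCTCTcggacgggcg
mib-1: cacccggtgtgtACTCCTCTcggacaagga
cux-7: cccatgtggtgaACTCCTCTcggacaactt
thoc-5: catctcccgcggACTCCTCTcggacagcat
cyn-10: catcagtcgtgtACTCCTCTcggacaataa
dhhc-4: gtattctggcggAGTCCTCTcggaaaataa
The ced-5 site lies at chrIV:10483916-10483945 on the plus strand and the wrm-1 site at chrIII:5722061-5722090, also on the plus strand. The others are on the minus strand: mib-1 at chrIII:11290707-11290736, cux-7 at chrIII:7520806-7520835, thoc-5 at chrIII:5349418-5349447, cyn-10 at chrII:6913462-6913491 and dhhc-4 at chrIII:9868281-9868310. Of the 7 sites, 6 hold the core exactly. The dhhc-4 site holds it with the substitution C2G, counted from 1 at the 5′ end of the core. The 4 bases after the core, cgga, are the same at all 7 sites. The core lies in intergenic sequence at 6 genes and in the 5′ UTR at cux-7.

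The sequence is longer than the core. The other E-box-free optimal peaks that hold the core on chromosomes II, III, IV and V were aligned (17 peaks, none of them at these 7 genes). Keeping each base found in at least 70% of them gave a form of 21 bases with 20 fixed bases and 1 open one. Capitals again mark the core.
long form: ccgtgtACTCCTCTcgganaa
The member sites matched 15 to 19 of its 20 fixed bases, with a median of 17. The closest was cyn-10 with 19, differing only by C1T, counted from the 5′ end of the long form. The mib-1 site followed with 18, differing by C1G and C2T. The farthest was dhhc-4 with 15, whose differences are C1T, C2G, T4C, T6G and C8G. Most departures lay before the core. Of the 6 bases there, the members matched a median of 4, the 22 other E-box-free optimal peaks with the core a median of 5, and the 2048 copies of the core elsewhere in the genome a median of 1. The 12 bases ACTCCTCTCGGA, which take in only the first 4 bases after the core, were complete at 6 of the 7 sites. They were complete at 11 of the 22 other peaks (50%) and at 220 of the 2048 copies elsewhere (10.7%). Farther on, wrm-1 differed from the long form by A20G and A21G and thoc-5 by A21G. The core was chosen with the member peaks included, so the count at the members may be partly set by that choice. The 22 peaks and the copies elsewhere were counted over all chromosomes. The long form was itself built from 17 of those 22 peaks, so their match to it, with a median of 18.5, is partly fixed by its making.

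A second short sequence recurred near the core. With the long form masked, GTGGCCTA (TAGGCCAC on the other strand) was the 8-base sequence most over-represented at the 22 other core-holding peaks. It was present at 9 of them (40.9%) and at 0.26% of lower-ranked E-box-free regions. The sequence was picked for the largest such difference in these same peaks, so the contrast is partly set by the choice. An overlapping sequence, CTAGGCCA, was in 8 of these 22 with the same masking (36.4%). Without masking it was in 22 of all 274 E-box-free optimal peaks (8.03%), and its share among those without the core was not counted. The windows of wrm-1, thoc-5 and ced-5, 101 bases around the summit read along the gene, show the arrangements. Capitals mark the core and copies of this second sequence with at most 1 mismatch.
wrm-1: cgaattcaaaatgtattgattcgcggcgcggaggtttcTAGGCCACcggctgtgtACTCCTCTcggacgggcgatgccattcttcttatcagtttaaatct
thoc-5: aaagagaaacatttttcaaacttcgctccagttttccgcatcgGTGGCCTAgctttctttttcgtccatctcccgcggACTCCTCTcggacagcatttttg
ced-5: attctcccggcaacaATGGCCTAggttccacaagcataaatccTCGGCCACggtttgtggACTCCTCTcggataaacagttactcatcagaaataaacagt
These windows are chrIII:5722018-5722118 on the plus strand, chrIII:5349413-5349513 on the minus strand and chrIV:10483868-10483968 on the plus strand. The wrm-1 window holds the second sequence exactly, read on the strand opposite to the core and starting 17 bases before it. The thoc-5 window holds it exactly on the same strand as the core, starting 35 bases before it. The ced-5 window holds a copy in each of these orientations, both with 1 mismatch. In the windows not shown, the best copy had 1 mismatch at mib-1 and cux-7 and 2 at cyn-10 and dhhc-4. The 4 bases GGCC at the centre of the second sequence were chosen for counting after these windows were seen. They began 15 bases before the core at ced-5, wrm-1, mib-1 and cyn-10. They began 16 bases before it at dhhc-4, which has another copy at 39, and at 33 and 40 bases before it at thoc-5 and cux-7. GGCC began exactly 15 bases before the core at 4 of the 7 member sites, at 5 of the 22 other peaks (22.7%) and at 22 of the 2048 copies elsewhere (1.07%). This offset is the commonest at the members but not at the 22 other peaks, where GGCC began 8 bases before the core in 7 (31.8%), reaching into the long form, 15 bases in 5 and 23 bases in 4; no member has it at 8 or 23. Within 50 bases before the core, outside the long form, it was present at 7 of 7, 18 of 22 (81.8%) and 144 of 2048 (7.03%). Copies of GGCC after the core were not counted. A match to these letters is a description of the sequence and does not name a factor that binds there.

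**Figure D1:**
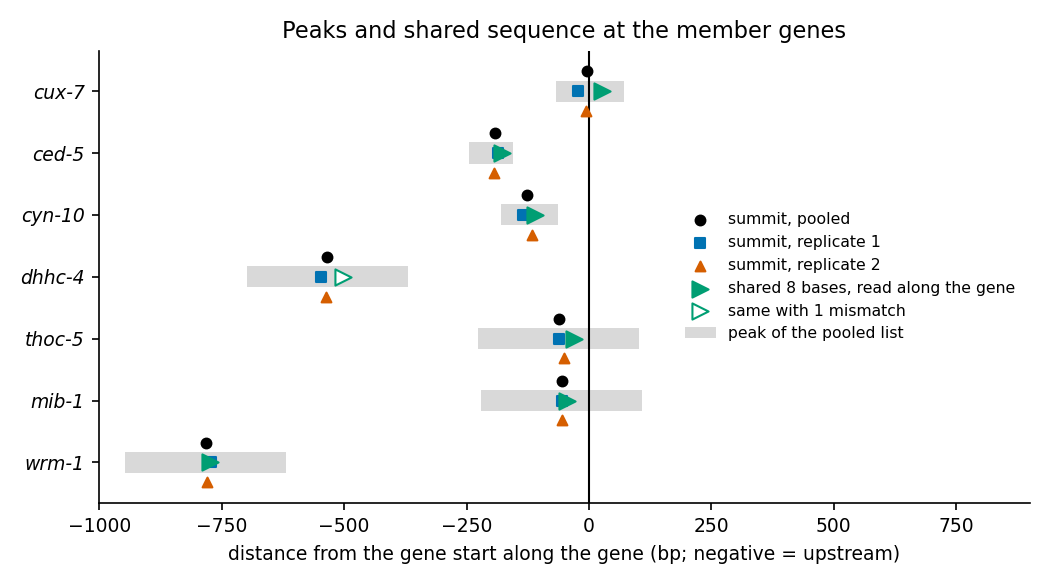
Peaks and the core at the 7 genes, drawn to scale along each gene with the gene start at 0 bp on the horizontal axis and upstream to the left. Grey bars are the peaks of the pooled list, circles, squares and triangles are the summits in the pooled list, replicate 1 and replicate 2, and green arrowheads are the core read along the gene (open at dhhc-4, where it has 1 mismatch); cores lie from 777 bp upstream at wrm-1 to 22 bp downstream at cux-7.

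All 7 genes had an optimal peak in reach of their start, as the rule requires; among all protein-coding genes 445 did (2.23%). An optimal peak without a G/C-centred E-box within 50 bp of the summit was in reach of 269 genes (1.35%), and one that also held the exact core was in reach of 48 (0.24%), of which 6 are members. The 7 peaks spread over most of the optimal set: cux-7 ranked 17 in the pooled list, ced-5 34, cyn-10 49, dhhc-4 80, thoc-5 104, mib-1 364 and wrm-1 471. The word strong thus fits 5 of them, which were in the upper part of the set, and not mib-1 and wrm-1. wrm-1, the weakest member, had a signal value of 47.0, against 43.1 for the last optimal peak, rank 545, and 43.1 for the first region outside the set, rank 546. Every summit was intergenic.

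ced-5 (WBGene00000419, chrIV:10484110-10492913, plus strand) encodes the worm DOCK180 homologue, which with CED-2 and CED-12 activates the Rac GTPase CED-10 in the engulfment of cell corpses and in cell migration. Its peak at chrIV:10483865-10483954 had a signal value of 140.3 in the pooled list, with the summit 192 bp upstream of the start. The overlapping region ranked 26 with a value of 65.1 in replicate 1 and 58 with a value of 68.0 in replicate 2. The core lay 182 bp upstream of the start. The region was near the top of both replicate lists, with summits 186 and 195 bp upstream. The gene F01D4.5 starts on the opposite strand, 261 bp from the same summit. A further pooled region in reach of ced-5 ranked 16670, in a coding exon 920 bp upstream of the start, and neither replicate list held it within the window.

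wrm-1 (WBGene00006943, chrIII:5722850-5727115, plus strand) encodes a β-catenin that acts with the kinase LIT-1 to control the TCF factor POP-1 in asymmetric cell divisions. Its peak at chrIII:5721903-5722232 had a pooled signal value of 47.0, with the summit 782 bp upstream of the start, the farthest of the 7. The region ranked 2473 with a value of 14.5 in replicate 1 and 336 with a value of 34.2 in replicate 2. The replicates differ most here, by 7.36-fold in rank, and wrm-1 is the only member outside the 545 strongest regions of a replicate. The summits of the 3 lists lay within 11 bp of each other, so the position was alike in both replicates where the rank was not. A further region, with a CAGGTG E-box at its summit, lay 1797 bp upstream with pooled rank 10157; replicate 1 held it at rank 22709 and replicate 2 did not list it within the window.

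mib-1 (WBGene00012933, chrIII:11286335-11290676, minus strand) encodes the mind bomb homologue, an E3 ubiquitin ligase whose relatives in Drosophila and zebrafish promote the endocytosis of Notch ligands. Its peak at chrIII:11290567-11290896 had a pooled signal value of 55.2. The region ranked 368 with a value of 25.1 in replicate 1 and 454 with a value of 29.4 in replicate 2, and all 3 lists had the same summit, 56 bp upstream of the start. It was thus a weaker peak whose rank and position were close in both replicates. The summit is shared by 2 other genes. One, smc-3, which encodes a cohesin subunit, starts 172 bp away on the opposite strand, and gly-9, an N-acetylgalactosaminyl transferase gene on the same strand, starts 152 bp from it.

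cux-7 (WBGene00000854, chrIII:7518628-7520845, minus strand) had the strongest of the 7 peaks. The peak at chrIII:7520774-7520913 had a pooled signal value of 164.9, with the summit 5 bp upstream of the gene start. It ranked 19 with a value of 70.8 in replicate 1 and 16 with a value of 92.6 in replicate 2, so its rank was nearly the same in all 3 lists. The core lay 22 bp downstream of the start, in the 5′ UTR, and was the only one downstream. This window was also the only one with any CANNTG site, a CACATG, which is not G/C-centred. C07H6.2 and lig-4, which encodes a DNA ligase IV homologue, start on the opposite strand 159 and 613 bp from the summit.

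thoc-5 (WBGene00021311, chrIII:5345931-5349401, minus strand) encodes a subunit of the THO complex, which couples transcription to the export of mRNA from the nucleus. Its peak at chrIII:5349298-5349627 had a pooled signal value of 95.3. The region ranked 147 with a value of 38.1 in replicate 1 and 135 with a value of 51.2 in replicate 2. Its rank ratio between replicates, 1.09, was the smallest of the 7. Summits lay 62 bp upstream in the pooled list and replicate 1 and 52 bp upstream in replicate 2, with the core 34 bp upstream. Each list held a further weak region 818 to 1040 bp upstream, none ranked above 27346.

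cyn-10 (WBGene00000886, chrII:6912540-6913365, minus strand) encodes a cyclophilin, a peptidyl-prolyl isomerase that aids protein folding. Its peak at chrII:6913429-6913544 had a pooled signal value of 126.1, with the summit 127 bp upstream. The region ranked 17 with a value of 72.9 in replicate 1 and 97 with a value of 57.6 in replicate 2, a 5.71-fold difference in rank that ran the other way from wrm-1. The replicate summits differed by 19 bp, the most of any member, with the core between the start and all of them, 114 bp upstream. dhhc-4 (WBGene00014075, chrIII:9863218-9867792, minus strand) belongs to the enzymes that attach palmitate to proteins. Its peak at chrIII:9868162-9868491 had a pooled signal value of 105.0, with the summit 535 bp upstream. The region ranked 117 with a value of 42.8 in replicate 1 and 76 with a value of 62.0 in replicate 2. It stood above thoc-5, mib-1 and wrm-1 in all 3 lists although its core has a mismatch and its long-form match was the lowest of the 7. Replicate 2 held a further region at rank 26095, with its summit in an intron.

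**Figure D2:**
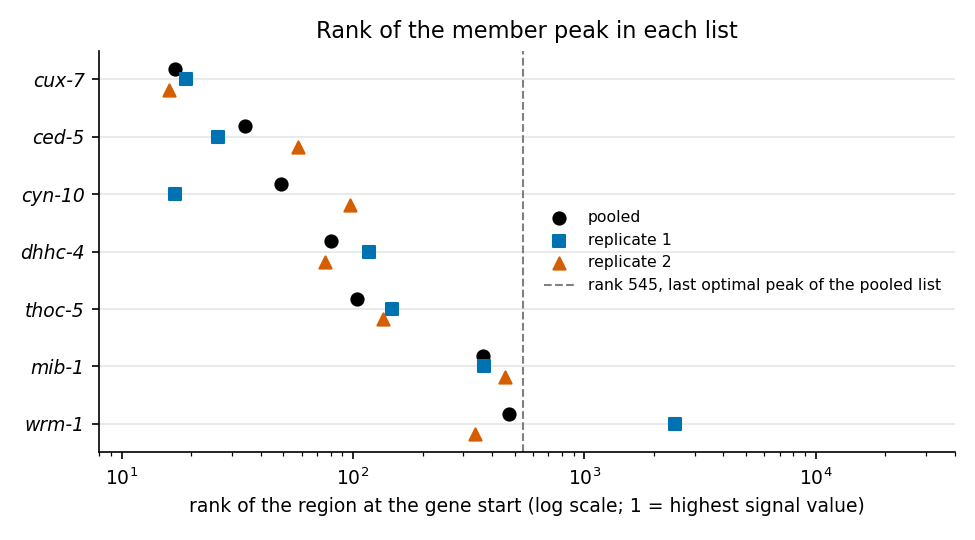
Rank of the region at each gene start in the pooled list (circles), replicate 1 (squares) and replicate 2 (triangles), on a log scale where 1 is the highest signal value, with the genes ordered by pooled rank. The dashed line marks rank 545, the last optimal peak; wrm-1 in replicate 1, at rank 2473, is the only point to its right.

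Among the 545 strongest regions of each list, 6 of the 7 genes had 1 in reach in replicate 1 and 7 of 7 in replicate 2, where 2.2% and 2.16% of all protein-coding genes did. Pooled signal values cannot be set against replicate values, since their normalization is not stated, so the lists are compared by rank. The ratio between the replicate ranks of a member was 1.09 to 7.36. It was above 2 at ced-5, cyn-10 and wrm-1, of which ced-5 and cyn-10 ranked higher in replicate 1 and wrm-1 in replicate 2. Summits differed by 0 to 19 bp between the 3 lists. In the upper 272 peaks of the optimal set 5 members remained, and 1.17% of genes had such a peak in reach.

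Some member peaks were narrow in the pooled list, though not in the replicate lists. In the pooled list full-width regions span 330 bp, and 107 of the optimal peaks are narrower. The ced-5 peak spanned 90 bp, the cyn-10 peak 116 bp and the cux-7 peak 140 bp, so 3 of 7 members were narrow, and these are the 3 strongest. The same 3 regions had full width in the replicates, 330 bp in replicate 1 and 340 bp in replicate 2. The widths that follow are those of the pooled list. Among the 22 other E-box-free peaks with the core, 3 were narrow (13.6%), and among 147 E-box-free promoter peaks without it 6 were (4.08%). Narrow peaks made up 52 of the 149 promoter peaks with a G/C-centred E-box (34.9%). The median pooled rank was 80 for the members, 169.5 for the other core-holding peaks, 313 for E-box-free promoter peaks without the core and 239 for those with an E-box. The members were picked for the presence of the core among named peaks, so these values describe the groups and were not tested.

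No G/C-centred E-box lay inside any of the 7 peaks. The nearest was 261.5 bp from the summit at wrm-1, 267.5 bp at mib-1, 407.5 bp at thoc-5 and 555.5 bp at dhhc-4. At cyn-10, ced-5 and cux-7 it was 1647.5, 2898.5 and 3466.5 bp away. The 3 strongest of these 7 members were also the farthest from such a site. Distances at other peaks are not given here, and this order was not tested. Across the optimal set 274 of 545 peaks lacked a G/C-centred E-box near the summit (50.3%).

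The core was the 8-base sequence with the largest excess over weak regions. It was held by 28 of the 274 E-box-free optimal peaks (10.2%), against 25 of 14287 E-box-free lower-ranked regions (0.175%), those past pooled rank 15000 that overlap no optimal peak. Over all regions the counts were 29 of 545 (5.32%) and 26 of 14976 (0.174%). The same sequence came first when the search used only the 545 strongest regions of replicate 1, where it was in 25 of 313 E-box-free regions, or of replicate 2, where it was in 29 of 306. Without the member peaks the leading sequence was AGTACACG, which reads CGTGTACT on the other strand and there ends on the first bases of the core, in 24 of 267 peaks. Only 1 of the 7 members holds that sequence exactly. The choice of core is thus partly set by the members, while the stretch of DNA it falls in is not.

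The core was more frequent among the 545 strongest regions of each list than below them. In the pooled list it was in 7 of the 50 strongest regions (14%), 8 of the 100 at ranks 101 to 200 (8%) and 13 of the 345 at ranks 201 to 545 (3.77%), but in 1 of the 50 at ranks 51 to 100. In replicate 1 the share was 10% at ranks 1 to 50, 4% at 51 to 100, 11% at 101 to 200 and 2.32% at 201 to 545. In replicate 2 it was 10%, 12%, 7% and 3.48% over the same ranks. Within the first 200 ranks the lists thus showed no common order, and the bins hold 50 or 100 regions each. Below rank 545 of the pooled list the share was 0.66% at ranks 546 to 1000 and 0.18% past rank 15000. The core was chosen for its excess in the optimal peaks over regions past rank 15000, so this contrast is partly set by that choice. Both replicate lists come from the same libraries as the pooled list. Of the members, ced-5, cux-7 and cyn-10 are among the 7 in the pooled list.

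**Figure D3:**
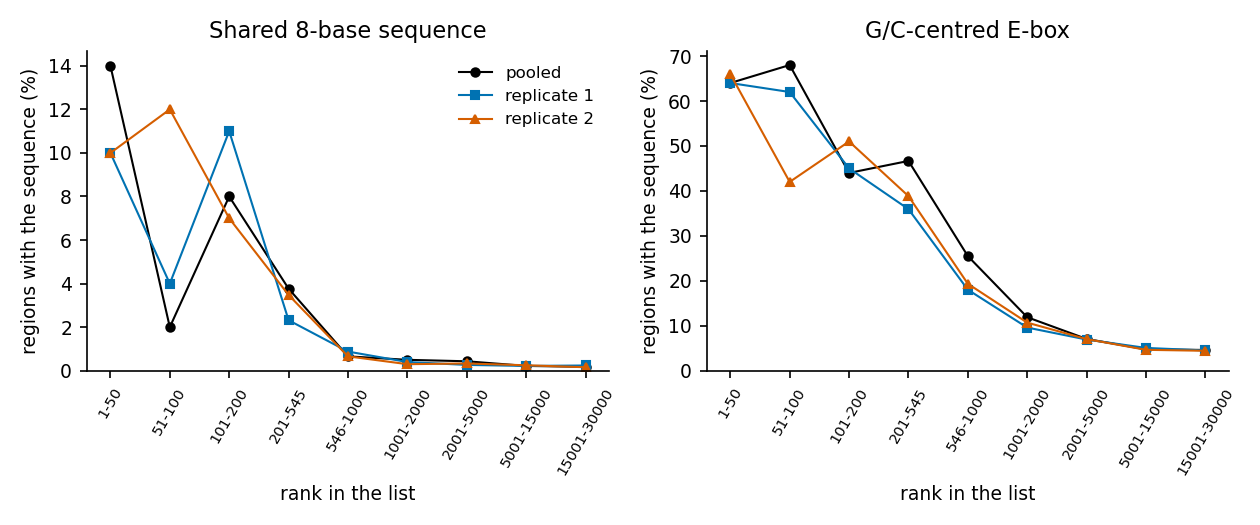
Share of regions, in percent, with the core (left) and with a G/C-centred E-box (right) within 50 bp of the summit, by rank in the pooled list (circles), replicate 1 (squares) and replicate 2 (triangles). Both shares are higher in each bin up to rank 545 than in any bin past it. Past rank 545 the core is below 1% in all 3 lists. Up to rank 200 the core's bins differ in order between the lists. The core was chosen for its excess in the optimal peaks, so its drop past rank 545 is partly set by that choice.

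Most copies of the core lay at no optimal peak. Of 2081 copies in the genome, 33 (1.59%) were within 50 bp of an optimal summit. A closer match to the long form went with a larger share: 6 of the 30 sites that match all 20 fixed bases lay at an optimal peak (20%), 10 of 66 with 1 mismatch (15.2%), 9 of 153 with 2 (5.88%), 16 of 593 with 3 (2.70%) and 11 of 607 with 4 (1.81%). The long form was built from such peaks, so this order is partly set by its making. Of the 30 perfect sites, 13 lay at a pooled region of any strength. Long-form matches do not order the members by rank: ced-5, cux-7 and thoc-5 each match 17 bases and rank 34, 17 and 104, and wrm-1, also with 17, ranks 471. In the promoter stretch that runs 250 bp before the start and 50 bp past it, 5 of the 7 members hold the exact core, as do 209 of all 19973 genes (1.05%). With 1 mismatch allowed the counts were 6 of 7 and 3331 genes (16.7%). The sixth is wrm-1, counted through another match with 1 mismatch 130 bp upstream of its start. The sites of wrm-1 and dhhc-4 printed above, 777 and 506 bp upstream, lie outside this stretch.

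At every member the summit lay before the core, on the side away from the gene body. The core's centre was 8.5 bp past the summit at wrm-1, 11.5 bp at mib-1, 13.5 bp at ced-5, 16.5 bp at cyn-10, 30.5 bp at cux-7, 31.5 bp at thoc-5 and 32.5 bp at dhhc-4. The same held for 7 of 7 members in replicate 2 and 6 of 7 in replicate 1, where the wrm-1 summit was 2.5 bp past the core's centre. Read along the core rather than the gene, the summit came before it in 20 of the 22 other core-holding peaks (90.9%), with a median of 20 bp between summit and core centre, where the members had 16.5 bp. In the replicates this was so in 20 of 22 and 17 of 21 of the other peaks. This offset was measured after the sites had been seen and was not tested.

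**Figure D4:**
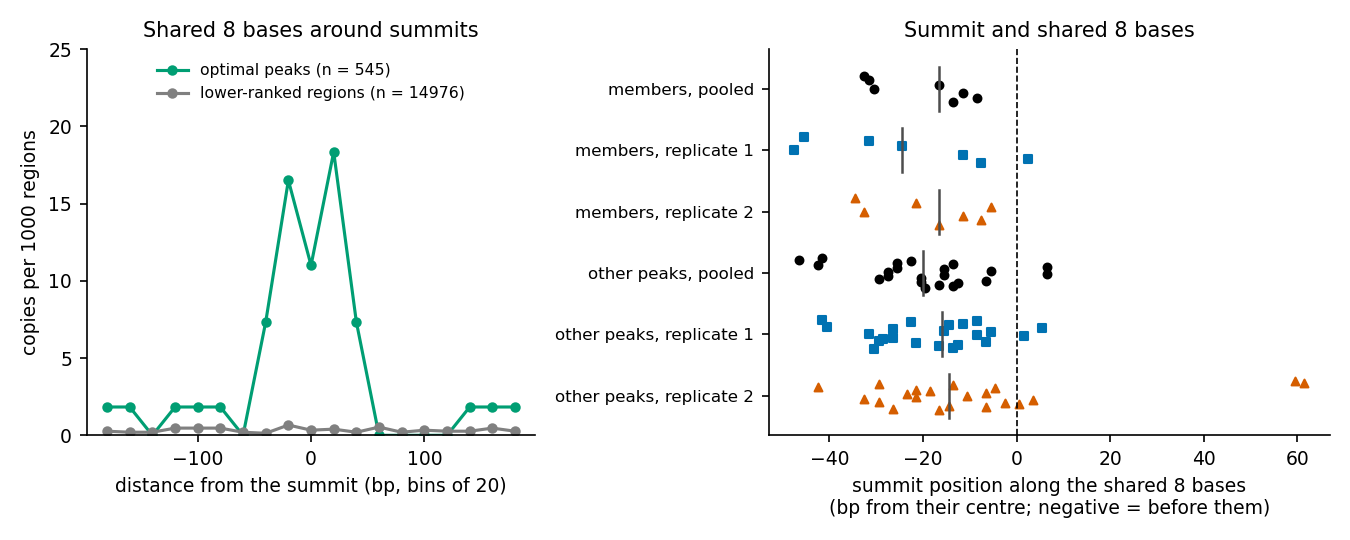
Left, copies of the core per 1000 regions by distance from the summit in bins of 20 bp. Green marks the 545 optimal peaks and grey the 14976 lower-ranked regions. The core was chosen for its excess within 50 bp of optimal summits over lower-ranked regions, so this contrast is partly set by that choice. Right, position of the summit in bp relative to the centre of the core, read along the core, for the 7 members and for the other 22 E-box-free peaks with it (21 in replicate 2), with vertical bars at the medians; in the pooled list all members and 20 of the 22 others lie left of 0.

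The core read along the gene at all 6 members that hold it exactly, and at 7 of 7 with 1 mismatch allowed. At the other E-box-free peaks with the core, it read along the nearest gene in 11 of 20 (55%). Where that gene was the only one in reach this was so in 6 of 8 (75%), and where the summit was within 250 bp of the start in 10 of 16 (62.5%). Of all 1142 matches in reach of a protein-coding gene, counted once for each gene in reach, 616 (53.9%) read along it. The share was higher close to starts, 62.9% from 250 to 101 bp upstream, 65.8% in the last 100 bp and 60.6% in the first 100 bp of the gene, and was 37.4% from 101 to 500 bp downstream. Orientation also depends on which gene is named at a shared promoter: at ced-5, mib-1 and cux-7 the genes on the opposite strand have the same core reading against them. wrm-1, cyn-10, thoc-5 and dhhc-4 were the only genes in reach of their peak.

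**Figure D5:**
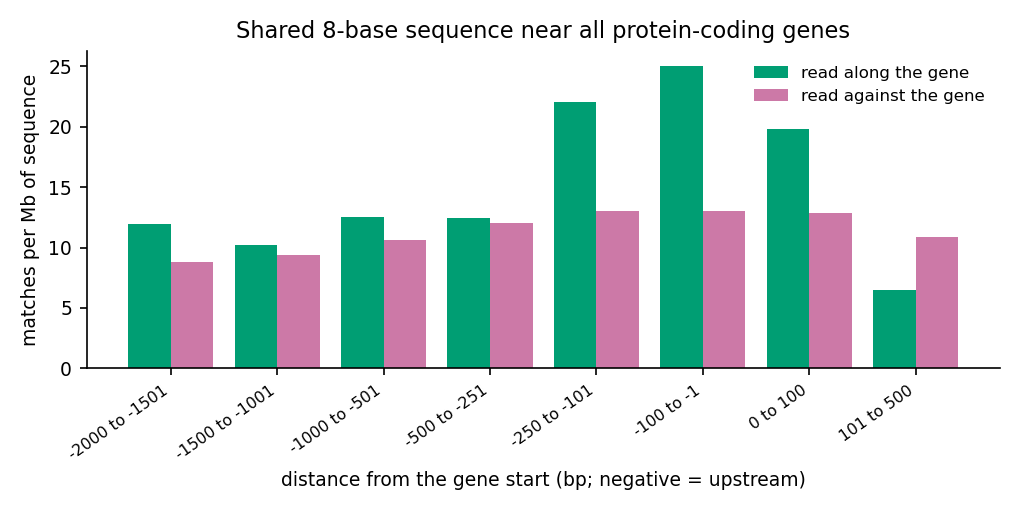
Exact matches of the core per Mb of sequence around the starts of all protein-coding genes, by distance from the start in bp (negative upstream). Green bars read along the gene and pink bars against it. Sequence and matches were summed over genes, so a match near several genes counts for each. In the first 100 bp of the gene, 19.8 matches per Mb read along it and 12.9 per Mb against it, and the order is the other way from 101 to 500 bp downstream.

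The distance of the core from the gene start was alike at the members and at the other genes nearest to such peaks. The median was 114 bp upstream at the members, from 777 bp upstream to 22 bp downstream, and 114.5 bp upstream at the other 20 genes, from 655 bp upstream to 12 bp downstream. Within 200 bp of the start lay 5 of 7 and 16 of 20. Of the members, 5 lie on chromosome III, 1 on II and 1 on IV. Chromosome III holds 75 of the 445 genes with an optimal peak in reach (16.9%) and 14 of the 48 with a core-holding E-box-free peak (29.2%). Counted among the 14 are wrm-1, mib-1, cux-7, thoc-5 and the genes that share the mib-1 and cux-7 peaks. The 29.2% is thus partly set by the members and is no independent background for them. The windows around the member summits had a GC content of 43.6% to 55.4%.

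The genes most like the members, taken as the 10 nearest to the strongest other E-box-free optimal peaks with the core by pooled signal value, were F56G4.6, W04C9.4, W02H5.19, F13A7.14, Y73B6BL.29, F26G1.1, Y38C1AA.12, gfm-1, lrpr-1 and R166.2. Their peaks ranked 10 to 159 in the pooled list, and the strongest, at F56G4.6, had a signal value of 192.1 and ranked 23 in replicate 1 and 8 in replicate 2, above all 7 members in the pooled list. The core read along the gene at 8 of the 10, the exceptions being F56G4.6 and W04C9.4. gfm-1, which encodes the mitochondrial elongation factor G, had a pooled signal value of 84.1 with the summit 174 bp upstream of its start, and ranked 136 and 179 in replicates 1 and 2.

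Few other genes of each member's pathway or family had an optimal peak in reach. A pooled region of any rank was in reach of 11181 of all 19973 protein-coding genes (56%), so such a region at a listed gene is common. Of 11 genes of cell corpse engulfment, ced-5 was the only one with an optimal peak in reach, and 7 had a region of any rank. The others with a region included ced-2, which encodes a CED-5 partner, at rank 4802, and ttr-52, which encodes a protein that binds the corpse surface, at rank 2761. Of 27 annotated Wnt and β-catenin genes, 14 had any region and 2 an optimal peak, wrm-1 and mig-5. mig-5, which encodes a Dishevelled protein, had a pooled rank of 478 and a signal value of 46.5, close to wrm-1, but its peak held a G/C-centred E-box and not the core, and it ranked 403 and 825 in replicates 1 and 2. lit-1, whose kinase works with WRM-1, had its best region at rank 2429 and pop-1 had none in reach.

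Of 17 Notch pathway genes, mib-1 alone had an optimal peak, with 11 holding any region; the ligand gene lag-2 had its best region at rank 3002. Of 7 annotated genes listed as CUT homeobox genes, a list in which cux-7 stands by its symbol only, cux-7 was the only one, with 5 holding any region. Of 17 cyclophilin genes cyn-10 was the only one, with 12 holding any region, and the next was cyn-11 at rank 826, 1945 bp upstream, with an E-box at its summit. With reach widened to 5000 bp before and 1000 bp after the start, where 4% of all genes had an optimal peak, there were 3, cyn-10, cyn-3 and cyn-7. thoc-5 was the only one of 11 genes of the THO complex and mRNA export, with 6 holding any region; thoc-7 and thoc-2 had their best regions at ranks 7926 and 10153. Of 15 palmitoyl transferase genes dhhc-4 was the only one, with 9 holding any region, and with the wider reach there were 2, dhhc-4 and dhhc-12. Within 2000 bp before and 500 bp after the start, no listed gene in the 7 lists other than the member had the core at its best region, and the one other gene with an optimal peak was mig-5. Since each list was built around a gene chosen for its peak, the count of 1 per list is fixed by that choice and is to be read against the 2.23% of all genes.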

How the data were processed

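The authors deposited region lists on 2 genome builds; only those on ce11 were used. Per the descriptive text deposited beside them, region lists came from alignments of each replicate, or of both pooled, with a control, and IDR over these 3 lists gave the optimal peaks. The sources used here do not give the aligner, the caller or the read depth. Each deposited region has a signal value of unstated normalization, used to rank regions within 1 list. The 545 optimal peaks are the 545 strongest pooled regions.

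Sequence came from the WBcel235 (ce11) genome and genes from Ensembl release 115. Motifs were searched on both strands within 50 bp of a summit, exactly unless a mismatch is stated; the core was the 8-base sequence with the largest difference in share between E-box-free optimal peaks and E-box-free lower-ranked regions (past pooled rank 15000). A gene was in reach of summits between 2000 bp before and 500 bp after its start. The genes, and the lists written from textbook knowledge, were chosen with earlier results of these data known, so nothing was tested and no p-value is given. Genes named are the 7, other genes in reach of their peaks, listed genes with an optimal peak, and the 10 strongest other genes with a core-holding E-box-free peak. The values or names given for ced-2, ttr-52, lit-1, pop-1, lag-2, cyn-3, cyn-7, cyn-11, dhhc-12, thoc-2 and thoc-7 were chosen after their values were seen. The replicates form 1 group and are biological per the labels. The sequence search, and a separate 8-base count of the same kind, were tested on simulated sequences. The other counts were not. Python 3.11.15, pandas 2.3.3, NumPy 2.4.6 and Matplotlib 3.10.9 were used. Alternatives covered the windows, mismatches, the choice of core and each replicate alone.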

Additional observations from a re-analysis of the deposited data

How the results depend on the processing

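With the core chosen without the member peaks, 1 member held it, against 6. With 1 mismatch allowed, 16.7% of promoters (250 bp before to 50 bp past the start) held the core, against 1.05%, and with 25 bp either side of the summit 3.30% of optimal peaks did, against 5.32%. With reach widened to 5000 bp before and 1000 bp after the start, where 4% of all protein-coding genes had an optimal peak, 3 cyclophilin and 2 palmitoyl transferase genes did. In the single replicates, the lower and the higher rank of each member were 26 and 58 at ced-5, 336 and 2473 at wrm-1, 368 and 454 at mib-1, 16 and 19 at cux-7, 17 and 97 at cyn-10, 135 and 147 at thoc-5 and 76 and 117 at dhhc-4. The median distance from summit to an exact core within 50 bp was 11.5 bp in replicate 1 and 14 bp in replicate 2, against 15 bp pooled. The replicate 1 value rests on 5 members, since the cux-7 core, centred 47.5 bp from that summit, leaves the window. Over all 7 members, with 1 mismatch allowed and read along the core, the median was 24.5 bp in replicate 1. It was 16.5 bp in replicate 2 and in the pooled list, so the distance was not smaller in the replicates. Of the Wnt and β-catenin genes, 1 had a peak among the strongest regions of either replicate: wrm-1 drops out without replicate 2 and mig-5 without replicate 1. The causes were not tested. No paired analysis was possible because the series has 1 group and no result comes from a test.

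Unknown read depth and 2 libraries limit what the ranks can show. Weak regions, such as those past rank 10000 near ced-5, wrm-1 and thoc-5, have no replicate check beyond their presence in a list. Summits are single positions from a caller that is not named here, so offsets of a few bp are within the 0 to 19 bp by which member summits differed between lists.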
